A study of Mus musculus with 36 samples.

Results

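Clec11a, B430305J03Rik, BC049715, Rdm1 and Kctd12 were followed through 36 SLAM-seq libraries of mouse embryonic stem (ES) cells. They are 5 of 18419 genes that had a row in all 6 deposited tables (22979 genes had a row in at least 1). The genes were chosen by the readout itself: they are annotated as protein-coding, and the p of their rise after depletion of ZCCHC8 was among the smallest. Among 6567 protein-coding genes with a higher level after ZCCHC8 depletion, Clec11a, B430305J03Rik and BC049715 held ranks 1, 2 and 3 by p, Rdm1 rank 4 and Kctd12 rank 9. Values of that contrast are therefore given below as a description, without a test.

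ZCCHC8 is the scaffold of the nuclear exosome targeting (NEXT) complex, in which the RNA-binding protein RBM7 and the helicase MTR4 hand short-lived nuclear transcripts to the RNA exosome for degradation. Its best known substrates are unstable noncoding RNAs, such as upstream antisense transcripts of promoters and enhancer RNAs. METTL3 is the catalytic subunit of the enzyme that writes N6-methyladenosine (m6A) on RNA, and YTHDC1 is a nuclear protein that binds m6A. Clec11a encodes a secreted C-type lectin that acts as a growth factor for blood progenitors and bone-forming cells. Rdm1 encodes a RAD52 motif protein linked to the response to DNA damage, and Kctd12 an auxiliary subunit of GABA-B receptors. B430305J03Rik and BC049715 carry the biotype of coding genes, and no role is stated for them here.

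The libraries came from 3 degron lines of female ES cells with 1 Cast and 1 129S X chromosome, each line a single clone: METTL3 (12D), YTHDC1 (Y12H) and ZCCHC8 (Z12H). In each line the named protein carries a C-terminal FKBP12 F36V tag, through which the small molecule dTAG-13 sends it to degradation. Ctrl cells carried the same tag and received no dTAG-13, whereas dTAG cells received it from 2 h before doxycycline. All cells, Ctrl included, were given doxycycline at 1 µg/ml to induce Xist from the 129S X chromosome, for 20 h and then through a 4 h pulse of 500 µM 4-thiouridine (4sU). RNA was collected at the end of the pulse (0 min) or after a chase of 90 or 180 min with 50 mM uridine, in 2 replicates, so that each line had 6 Ctrl and 6 dTAG libraries. The cells were grown with feeder cells, which were preplated out before labelling. In SLAM-seq, RNA that took up 4sU is read with T-to-C mismatches, and the software GRAND-SLAM converts these into the new share, the percentage of a gene's RNA that was made during the pulse.

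Depth was 5274684 to 10257631 reads per library in the ZCCHC8 line, 9547507 to 18652000 in the METTL3 line and 10397753 to 16129632 in the YTHDC1 line. The 10 ES cell markers listed together summed to between 2964 and 4116 CPM (reads scaled to a common library total) in every library, and none was at 0. The 14 feeder markers summed to between 32.9 and 80.1 CPM, with 1 of them at 0 throughout the Ctrl arm of the METTL3 line. The degron acts on protein, so that the mRNA does not check the labels: Zcchc8 was at 27.8 to 44.8 CPM in Ctrl and 33.1 to 45.8 CPM in dTAG libraries of its line, Mettl3 at 54.2 to 62.0 and 52.6 to 64.6 CPM, and Ythdc1 at 143 to 312 and 313 to 441 CPM. In the ZCCHC8 line, 39.6% of 13962 genes passed the threshold in either direction (edgeR, adjusted p under 0.05) and 20.1% rose, so a rise was common there. The fit takes the 6 libraries of an arm as independent, though they come from 2 replicates.

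In the mm10 assembly, Clec11a (ENSMUSG00000004473) lies on the minus strand at chr7:44302687-44306902, with a single annotated transcript of 4 exons. B430305J03Rik (ENSMUSG00000053706) is a single exon on the minus strand, at chr3:61362250-61365951. BC049715 (ENSMUSG00000047515) lies on the plus strand at chr6:136827626-136840662. Its length in the deposited tables, 5539 bases, equals that of a transcript annotated as a retained intron with no coding sequence, whereas its coding transcripts are 323 to 2057 bases long. Reads of the coding and of the retained-intron transcripts cannot be told apart in a table of reads per gene. Rdm1 (ENSMUSG00000010362) lies on the plus strand at chr11:101627195-101636100, and Kctd12 (ENSMUSG00000098557) on the minus strand at chr14:102976581-102982637, where its coding transcript is 1 exon. For the other 4 genes the deposited length equals that of a coding transcript, at 2978 bases for Clec11a, 3702 for B430305J03Rik, 1124 for Rdm1 and 6057 for Kctd12.

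The stretch around a RefSeq transcription start was in the RefSeq promoter table (GRCm38.p6, the patched form of mm10) for 3 of the 5 genes, and it is printed to show how the base composition of these starts differs between the genes. Each runs 5′ to 3′ on the gene's strand, from 150 bases before the start to 30 after it, at chr7:44306930-44307109 (minus) for Clec11a, chr6:136828693-136828872 (plus) for BC049715 and chr14:102982608-102982787 (minus) for Kctd12. The RefSeq start equals the annotated gene start for Kctd12 and lies 57 bases outside it for Clec11a. For BC049715 it lies 1217 bases inside the gene, at the start of its coding transcript of 1120 bases, and the retained-intron transcript starts upstream of the window. Capitals mark CCAAT and GGGCGG on either strand, and TATAAA was searched on both strands too.
Clec11a: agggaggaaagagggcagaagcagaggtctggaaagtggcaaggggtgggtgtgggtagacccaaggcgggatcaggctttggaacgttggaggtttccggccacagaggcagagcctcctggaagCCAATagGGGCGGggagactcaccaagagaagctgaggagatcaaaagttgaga
BC049715: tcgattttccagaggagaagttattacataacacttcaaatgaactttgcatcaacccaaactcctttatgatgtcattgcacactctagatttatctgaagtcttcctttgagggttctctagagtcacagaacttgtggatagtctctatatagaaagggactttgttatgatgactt
Kctd12: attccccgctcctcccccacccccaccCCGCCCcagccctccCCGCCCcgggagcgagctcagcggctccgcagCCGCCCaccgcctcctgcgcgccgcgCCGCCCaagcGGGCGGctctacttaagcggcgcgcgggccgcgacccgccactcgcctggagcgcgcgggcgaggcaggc
Kctd12 had 5 matches to GGGCGG, 81.1% G and C and 28 CpG dinucleotides in its 180 bases. Clec11a had 1 match to GGGCGG beside 1 to CCAAT, with 57.8% G and C and 4 CpG. BC049715 had none of the 3 motifs in this window at its coding start, 36.7% G and C and 1 CpG. Across 32851 promoter windows of the same length, 31.0% held GGGCGG, 27.0% CCAAT and 8.37% TATAAA, and the median was 53.9% G and C. Promoters of B430305J03Rik and Rdm1 are not printed.

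The level of Clec11a in the ZCCHC8 line had a lowest, median and highest value of 3.90, 4.41 and 6.06 CPM in the 6 Ctrl libraries and 49.3, 50.8 and 56.8 CPM in the 6 dTAG libraries. B430305J03Rik stood at 2.74, 5.21 and 7.10 CPM in Ctrl and at 33.2, 40.9 and 58.5 CPM in dTAG. BC049715 stood at 1.61, 3.20 and 3.82 CPM in Ctrl and at 24.1, 29.3 and 33.9 CPM in dTAG. These 3 genes were rare in Ctrl, where single libraries held 25 to 42, 19 to 60 and 9 to 32 reads of them. Rdm1 stood at 31.7, 33.6 and 35.3 CPM in Ctrl and at 82.7, 87.8 and 94.5 CPM in dTAG. Kctd12 stood at 21.9, 25.2 and 28.5 CPM in Ctrl and at 53.5, 66.2 and 74.7 CPM in dTAG. For each of the 5 genes the arms did not overlap, a property that 6.15% of the genes tested had in the direction of a rise and that the choice of the genes brings with it.

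**Figure D1:**
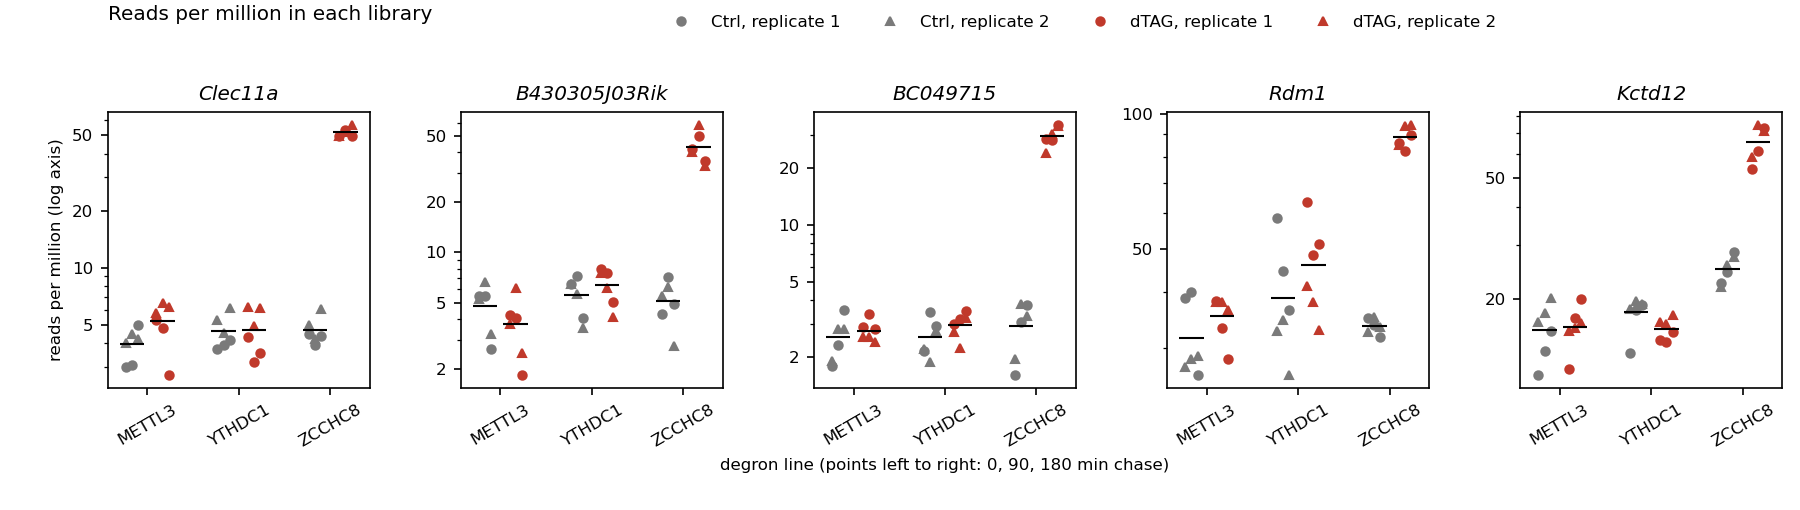
Level of each gene in each of the 36 libraries, in CPM on a log axis, by degron line. Grey is Ctrl, red is dTAG, circles and triangles are replicates 1 and 2, points run from 0 to 180 min within an arm, and the line is the mean of 6 libraries. The dTAG libraries of the ZCCHC8 line stand above all others, and the arms of the other lines overlap.

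The genes fell into a pair of size classes. The fitted log2 fold change was 3.48 (SE 0.09) for Clec11a, 3.33 (SE 0.12) for BC049715 and 3.06 (SE 0.10) for B430305J03Rik, which is 11.2-fold, 10.0-fold and 8.36-fold. For Rdm1 it was 1.40 (SE 0.05) and for Kctd12 1.38 (SE 0.06), 2.65-fold and 2.61-fold. By size, the first 3 ranked 31, 38 and 51 of 13962 genes tested, whereas Rdm1 and Kctd12 ranked 363 and 375. Within a replicate and chase time, dTAG exceeded Ctrl 9.38-fold to 13.7-fold for Clec11a, 7.05-fold to 12.1-fold for B430305J03Rik and 7.94-fold to 17.6-fold for BC049715. The range was 2.45-fold to 2.83-fold for Rdm1 and 2.37-fold to 2.89-fold for Kctd12. At the edge of the choice, Kctd12 (rank 9) was followed by Ovca2 (rank 10), at 35.4 to 39.5 CPM in Ctrl and 79.0 to 86.6 CPM in dTAG, a log2 fold change of 1.14.

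Whether the extra RNA was new or old was read at 0 min, where new RNA is what was made during the 4 h pulse. For B430305J03Rik nearly all of it was new. Its new RNA stood at 4.24 and 5.23 CPM in Ctrl replicates 1 and 2 and at 39.5 and 40.0 CPM in dTAG, and its old RNA at 0.0550 and 0.255 CPM in Ctrl and at 2.29 and 0 CPM in dTAG. New RNA thus made up 94.0% and 101% of the difference between the arms. The second value passes 100 because old RNA was lower in that dTAG library than in its Ctrl. The new share of that dTAG library was listed as 100%, above its own 90% interval of 97.05 to 99.89%. The Ctrl values rest on 24 and 42 reads of B430305J03Rik, new and old together. Its new share was 98.7% and 95.4% in Ctrl against 94.5% and 100% in dTAG.

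For Clec11a new and old RNA were both higher in dTAG, the old by the larger fold. New RNA went from 3.82 and 3.52 CPM in Ctrl to 26.2 and 24.0 CPM in dTAG, 6.87-fold and 6.80-fold. Old RNA, made before the pulse, went from 0.651 and 1.44 CPM to 23.2 and 25.3 CPM, 35.6-fold and 17.6-fold. The Ctrl values rest on 25 and 38 reads of Clec11a, new and old together. The new share was lower in dTAG, going from 85.4% (90% interval of GRAND-SLAM 70.5 to 95.7) to 53.1% (48.7 to 57.5) in replicate 1, and from 71.0% (57.8 to 82.7) to 48.6% (43.9 to 53.3) in replicate 2. New RNA was 49.9% and 46.1% of the extra Clec11a RNA.

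BC049715 lay between these genes. Its new RNA went from 1.48 and 1.63 CPM to 18.4 and 17.4 CPM and its old RNA from 0.135 and 0.325 CPM to 9.88 and 6.69 CPM. New RNA was 63.5% and 71.3% of the difference. Only 9 and 15 reads stood behind the Ctrl values, and their intervals of the new share, 70.9 to 99.3% and 64.4 to 96.0%, reached those of dTAG in replicate 2, 65.8 to 78.3%, and not in replicate 1, 59.6 to 70.5%.

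Rdm1 went the other way from Clec11a, since its extra RNA was mostly new and its new share was higher in dTAG. New RNA went from 10.9 and 11.5 CPM in Ctrl to 57.9 and 54.7 CPM in dTAG, 5.32-fold and 4.74-fold, while old RNA went from 24.2 and 21.1 CPM to 27.9 and 30.5 CPM, 1.16-fold and 1.44-fold. The new share was 31.0% (25.7 to 36.6) and 35.3% (30.3 to 40.3) in Ctrl and 67.5% (64.2 to 70.6) and 64.2% (60.6 to 67.7) in dTAG, and new RNA was 92.6% and 82.1% of the difference. Its new share was higher in dTAG in 6 of 6 pairs of matched libraries over the chase, where 25.7 to 61.3% of all genes were higher in a single pair. The median gene of the line had a new share of 60.6% and 64.3% in Ctrl and 60.1% and 59.7% in dTAG at 0 min, so Rdm1 passed from below that level to just above it.

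New and old RNA of Kctd12 were higher by similar folds. Its new RNA went from 13.0 and 13.3 CPM to 29.4 and 32.5 CPM, 2.26-fold and 2.45-fold, and its old RNA from 9.53 and 8.68 CPM to 24.1 and 26.1 CPM, 2.53-fold and 3.01-fold. New RNA was 52.9% and 52.5% of the difference, close to the new share itself, which was 57.7% and 60.4% in Ctrl and 54.9% and 55.5% in dTAG.

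**Figure D2:**
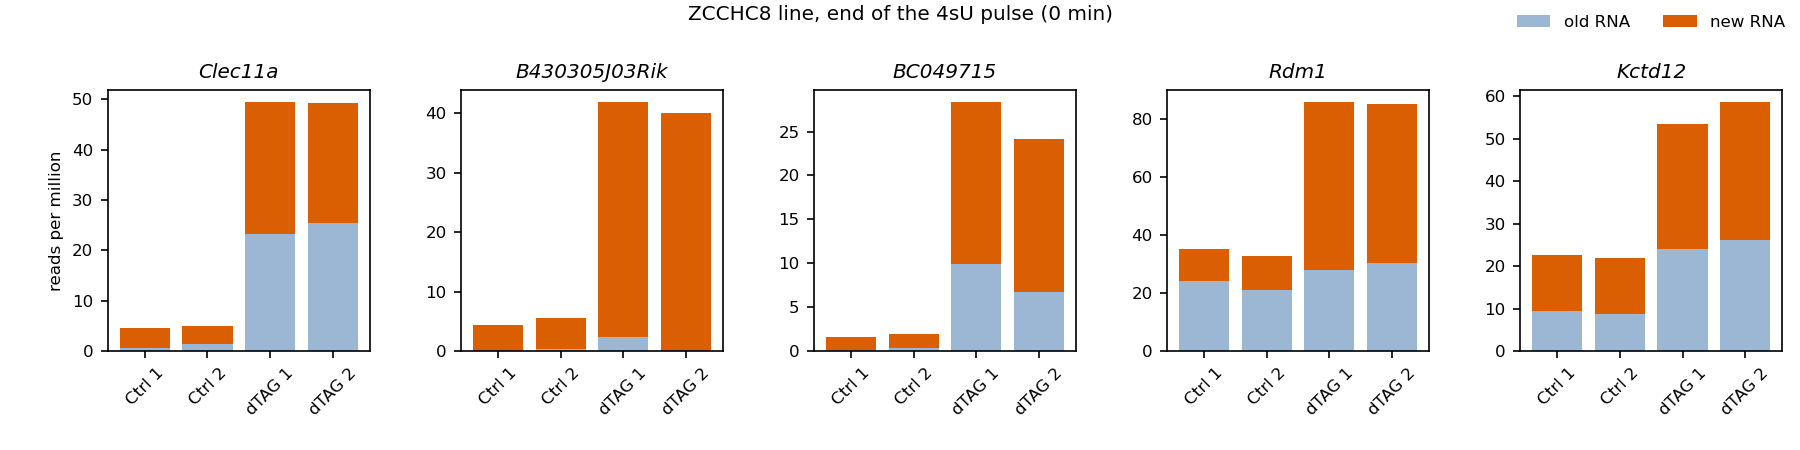
New (orange) and old (blue) RNA of each gene at the end of the pulse in the ZCCHC8 line, in CPM, as stacked bars, 1 bar per library (Ctrl and dTAG, replicates 1 and 2). The added RNA is almost all orange in B430305J03Rik and mostly orange in Rdm1, and divided between the colours in Clec11a and Kctd12.

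The raw T-to-C rate, conversions over T coverage with a 95% Wilson interval for counting error, gave the same order of arms at 0 min for Clec11a and Rdm1. For Clec11a it was 7.87% (6.18 to 9.98) and 6.21% (4.91 to 7.82) in Ctrl and 4.00% (3.68 to 4.36) and 4.04% (3.67 to 4.44) in dTAG. For Rdm1 it was 2.77% (2.40 to 3.21) and 3.17% (2.80 to 3.58) in Ctrl and 5.21% (4.91 to 5.52) and 5.31% (4.97 to 5.67) in dTAG. For B430305J03Rik the replicates disagreed in direction, with 10.8% and 6.04% in Ctrl and 7.80% and 8.44% in dTAG. Reads of the 5 genes covered 28.0 to 37.3 T each in the Ctrl libraries of this line and 29.1 to 37.1 in the dTAG libraries.

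Over the chase of the ZCCHC8 line, the new share of Clec11a in Ctrl was 85.4, 53.1 and 36.3% at 0, 90 and 180 min in replicate 1 and 71.0, 27.4 and 28.2% in replicate 2. In dTAG it was 53.1, 42.3 and 27.2% and 48.6, 46.2 and 31.2%. The arms were apart at 0 min and overlapped at 180 min. The new share of B430305J03Rik in dTAG went from 94.5 and 100% at 0 min to 40.6 and 31.2% at 180 min, beside 46.4 and 23.3% at 180 min in Ctrl. BC049715 went in dTAG from 65.1 and 72.2% to 34.2 and 36.4%, beside 34.6 and 23.6% at 180 min in Ctrl. Both genes had a smaller new share at 180 than at 0 min in each arm and replicate. Rdm1 lay between 31.0 and 39.7% in all Ctrl libraries and between 56.8 and 67.5% in all dTAG libraries, with no overlap at any time. From 0 to 180 min it went from 31.0 and 35.3% to 39.7 and 37.8% in Ctrl. In dTAG it went from 67.5 and 64.2% to 56.9 and 56.8%. Kctd12 stayed between 57.7 and 68.9% in Ctrl and between 54.8 and 62.7% in dTAG.

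**Figure D3:**
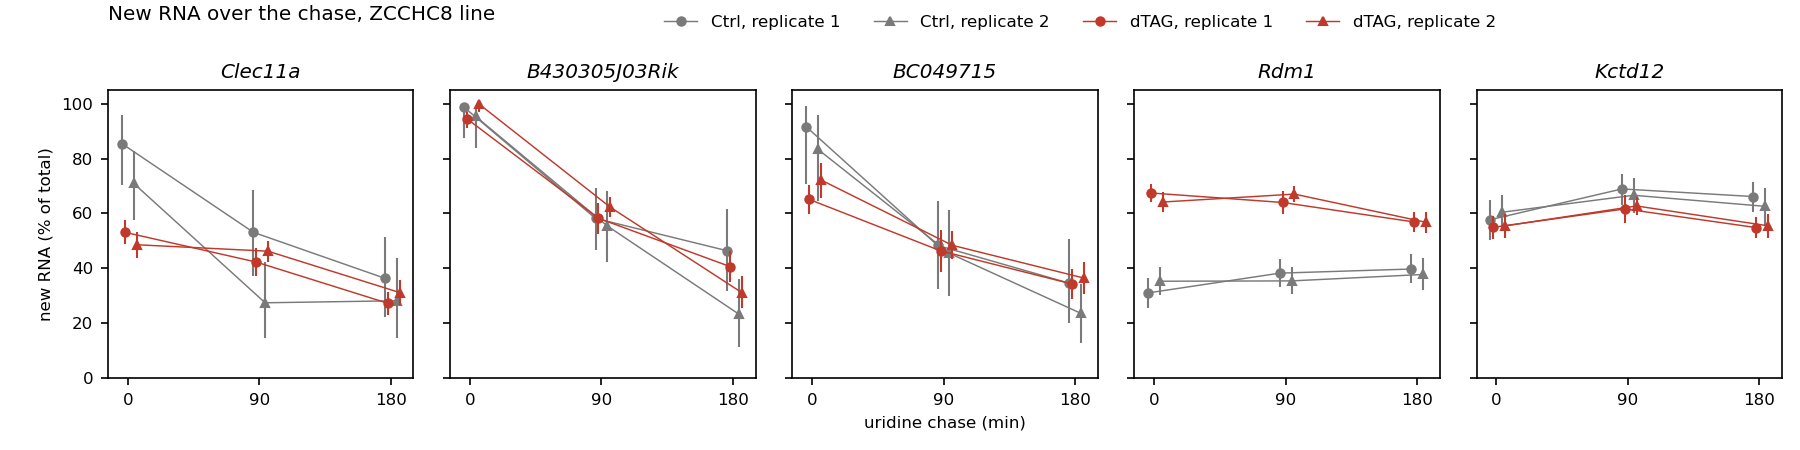
New share (% of total RNA) of each gene at 0, 90 and 180 min of chase in the ZCCHC8 line, with the 90% interval of GRAND-SLAM as bars, grey for Ctrl and red for dTAG, circles for replicate 1 and triangles for replicate 2. The points of Clec11a, B430305J03Rik and BC049715 are lower at 180 than at 0 min, those of Rdm1 are split by arm, and those of Kctd12 stay between 54.8 and 68.9%.

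How quickly the label leaves these RNAs in cells that keep all 3 proteins was tested in Ctrl libraries, a measure that the choice of the genes did not use. The slope of log2 new share over the chase was fitted per gene with limma, where it combines decay of labelled RNA and dilution by unlabelled RNA. B430305J03Rik lost 0.73 log2 units per h in the METTL3 line (slope -0.73, SE 0.06, adjusted p 1.25e-33) and had a slope of -0.86 in the YTHDC1 line (SE 0.05, adjusted p 1.31e-07). Only 0.255% and 0.135% of the genes tested fell more steeply. Clec11a had slopes of -0.60 (SE 0.06, adjusted p 6.97e-24), -0.82 (SE 0.08, adjusted p 5.05e-06) and -0.43 (SE 0.12, adjusted p 0.0226) in the METTL3, YTHDC1 and ZCCHC8 lines, and 1.61%, 0.271% and 3.20% of genes fell more steeply. BC049715 had at least 20 reads in every Ctrl library of the YTHDC1 line alone, with a slope of -0.71 (SE 0.12, adjusted p 0.00157), and missed the threshold without replicate 1 (adjusted p 0.0522).

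Rdm1 and Kctd12 did not pass this test of the GRAND-SLAM ratio in any of the 3 lines. Their raw T-to-C rate was nevertheless lower at 180 than at 0 min in each Ctrl replicate of each line. In the YTHDC1 line it went from 4.84 and 4.94% to 3.29 and 2.89% for Kctd12. For Rdm1 it went there from 2.42 and 2.39% to 2.07 and 1.66%. The fall of the raw rate was not tested or set against other genes. The slopes of Rdm1 were -0.09, -0.03 and 0.08 (SE 0.06, 0.05 and 0.05; adjusted p 0.174, 0.676 and 0.167), and those of Kctd12 -0.09, -0.10 and 0.04 (SE 0.07, 0.06 and 0.06; adjusted p 0.247, 0.147 and 0.574). Of all genes tested, 60.4%, 64.9% and 61.2% passed in either direction in the METTL3, YTHDC1 and ZCCHC8 lines. The new share fell in 5547, 6048 and 3664 of the genes that passed and rose in 1567, 1627 and 3089. The median slope of all genes tested was -0.12, -0.14 and -0.01. The share of genes with a steeper fall was 53.7%, 63.2% and 61.9% for Rdm1 and 53.9%, 55.0% and 57.0% for Kctd12.

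What the other depletions do to these genes is independent of how they were chosen. None of the 5 passed the threshold after depletion of METTL3, where 20.1% of 14413 genes did (4826 at an unadjusted p under 0.05), or of YTHDC1, where 5.25% of 14199 genes did (2651 unadjusted). At an unadjusted p under 0.05 there was 1 in each line, B430305J03Rik after METTL3 (p 0.0166, edgeR) and Kctd12 after YTHDC1 (p 0.0367, edgeR).

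With METTL3 depleted, Clec11a ranged from 2.71 to 6.53 CPM, beside 2.99 to 4.97 CPM in Ctrl. Its log2 fold change of 0.37 (SE 0.20) did not pass (edgeR, adjusted p 0.227), and it was higher in 5 of 6 pairs. After YTHDC1 its ranges were from 3.71 to 6.09 and from 3.17 to 6.18 CPM, a change of 0.00 (SE 0.17, adjusted p 0.999). BC049715 changed by 0.13 (SE 0.18, adjusted p 0.671) in the METTL3 line and by 0.18 (SE 0.18, adjusted p 0.694) in the YTHDC1 line, at 1.80 to 3.57 CPM throughout both lines. Each of these values lies within 2 SE of 0, and at this depth a small change could not be told from none.

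B430305J03Rik was lower in dTAG in 6 of 6 pairs of the METTL3 line, which 18.2% of all genes were, and higher in 6 of 6 pairs of the YTHDC1 line, which 16.6% were. Its level ranged from 2.64 to 6.62 CPM in Ctrl and from 1.84 to 6.15 CPM in dTAG of the METTL3 line, a log2 fold change of -0.40 (SE 0.14, adjusted p 0.0707). With the replicate as a block the value was -0.40 (SE 0.14) and the adjusted p 0.0223. That fit and the main one both take the chase libraries of a replicate as independent. With them summed per replicate, 2 against 2, the value was -0.39 (SE 0.30, adjusted p 0.783 by edgeR). After depletion of YTHDC1 it ranged from 4.08 to 7.95 CPM, beside 3.50 to 7.21 CPM in Ctrl, a change of 0.17 (SE 0.13, adjusted p 0.567). The difference between the 2 responses was -0.59 (SE 0.18, edgeR interaction over 36 libraries, adjusted p 0.0178), where 20.6% of 15105 genes passed. This call was lost without replicate 1 (adjusted p 0.0939), without replicate 2 (0.0536) and without the low-count filter (0.0654). The other 4 genes did not pass it, with differences of 0.36 for Clec11a (SE 0.23), 0.20 for Kctd12 (SE 0.13), -0.07 for BC049715 (SE 0.23) and -0.10 for Rdm1 (SE 0.22) and adjusted p from 0.295 to 0.871, though Kctd12 passed without replicate 2 (0.50, adjusted p 0.0415).

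Rdm1 ranged from 26.1 to 40.0 CPM in Ctrl and from 28.3 to 38.1 CPM in dTAG of the METTL3 line, a change of 0.14 (SE 0.14, adjusted p 0.532). In the YTHDC1 line it spread most, from 26.2 to 58.6 CPM in Ctrl and from 32.9 to 63.5 CPM in dTAG, and was higher in dTAG in 6 of 6 pairs, 1.08-fold to 1.41-fold. The change was 0.22 (SE 0.21, adjusted p 0.680), and with the replicate as a block 0.22 (SE 0.07, adjusted p 0.0220), but with the chase libraries summed per replicate 0.23 (SE 0.33, adjusted p 1.00 by edgeR). Without replicate 1 the adjusted p was 0.0155. Kctd12 ranged from 11.3 to 20.1 CPM in Ctrl and from 11.8 to 20.0 CPM in dTAG of the METTL3 line, a change of 0.02 (SE 0.14, adjusted p 0.939). Its ranges in the YTHDC1 line were from 13.3 to 19.7 and from 14.5 to 17.7 CPM, a change of -0.20 (SE 0.09, adjusted p 0.225), and was lower in 5 of 6 pairs. Clec11a and Rdm1 passed in the METTL3 line without replicate 1, at log2 fold changes of 0.52 and 0.39 (adjusted p 0.0106 and 0.000338).

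**Figure D4:**
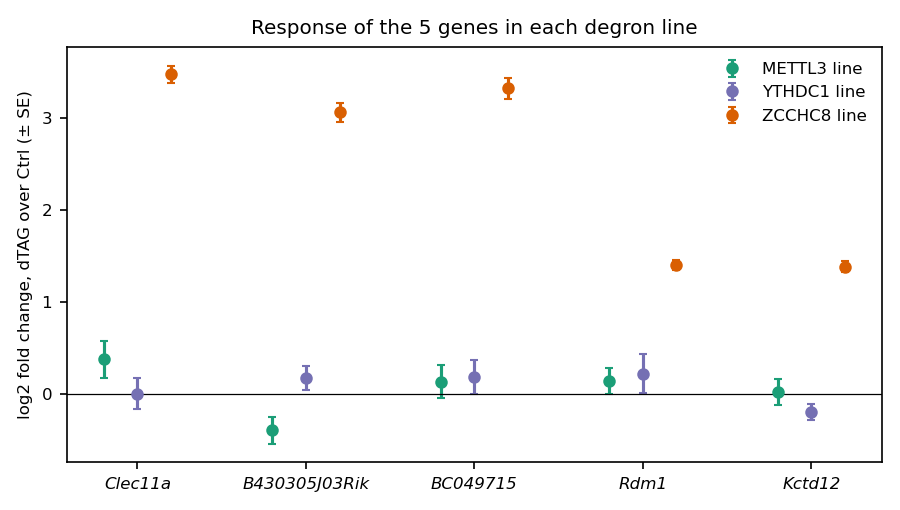
Log2 fold change of dTAG over Ctrl with its SE (6 against 6 libraries, edgeR) for each gene in the METTL3, YTHDC1 and ZCCHC8 lines. Values in the METTL3 and YTHDC1 lines lie between -0.40 and 0.37, and those of the ZCCHC8 line between 1.38 and 3.48.

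New and old RNA of the 5 genes were then tested apart in these 2 lines (limma on log2 of CPM + 0.5). None passed for new RNA in the METTL3 line, where 15.0% of genes did, for old RNA there (16.4%), or for new (2.38%) and old RNA (0.954%) in the YTHDC1 line. The unadjusted p was under 0.05 for 2 of these 20 values, new RNA of B430305J03Rik and old RNA of Kctd12 in the METTL3 line. Depletion of METTL3 moved the median gene by -0.13 in new and 0.16 in old RNA. Kctd12 stood at -0.31 in new RNA (SE 0.15, adjusted p 0.186) and 0.45 in old RNA (SE 0.19, adjusted p 0.135). Its new share was lower in dTAG in 6 of 6 pairs. In a single pair of this line only 23.3 to 42.7% of all genes had a higher new share in dTAG, so most genes were lower too. New RNA of B430305J03Rik stood at -0.46 (SE 0.19, adjusted p 0.119), and with the replicate as a block the adjusted p was 0.0332. The largest values in the YTHDC1 line were 0.36 for new RNA of BC049715 (SE 0.18, adjusted p 0.374) and 0.40 for old RNA of B430305J03Rik (SE 0.19, adjusted p 0.375). Without replicate 1, new RNA of Kctd12 passed in the METTL3 line at -0.60 (adjusted p 0.00294), and without replicate 2, that of B430305J03Rik at -0.66 (adjusted p 0.0399).

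The loss of label over the chase did not differ between arms by this test for any of the 5 genes in the METTL3 line, where 0.0703% of genes passed, or in the YTHDC1 line, where 0.0% did (292 genes at an unadjusted p under 0.05). The slope of Clec11a in the YTHDC1 line was -0.82 in Ctrl and -0.42 in dTAG, a difference of 0.39 per h (SE 0.13, limma adjusted p 1.00, unadjusted p 0.00799). Without replicate 1 this difference was 0.58 with an adjusted p of 6.96e-05. B430305J03Rik and BC049715 had too few reads for this test in the METTL3 line. In the ZCCHC8 line, as a description, slopes in Ctrl and dTAG were -0.43 and -0.27 for Clec11a, 0.08 and -0.07 for Rdm1 and 0.04 and -0.00 for Kctd12.

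Set in order of level, the dTAG arm of the ZCCHC8 line stood highest of the 6 arms for each gene. For Clec11a, B430305J03Rik, BC049715 and Rdm1 the other 5 arms each overlapped with the next. For Kctd12 the Ctrl arm of the ZCCHC8 line was also apart, at 21.9 to 28.5 CPM above the 13.3 to 19.7 CPM of the YTHDC1 Ctrl arm. Each line is 1 clone, so that clone and line cannot be told apart in this difference. Per kilobase of deposited length, the Ctrl arm of the ZCCHC8 line held 29.9 CPM of Rdm1, 4.15 of Kctd12, 1.56 of Clec11a, 1.38 of B430305J03Rik and 0.53 of BC049715. Rdm1 was above 81.3% of the genes tested there, and BC049715 above 7.81%. The value of BC049715 divides by the 5539 bases of its retained-intron transcript, and the shorter length of a coding transcript would give a higher value and place. In dTAG the values were 78.9 for Rdm1, 10.8 for Kctd12, 17.4 for Clec11a, 11.7 for B430305J03Rik and 5.36 for BC049715, so that Clec11a and B430305J03Rik then stood above Kctd12.

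B430305J03Rik and BC049715 each overlap an abundant gene on the opposite strand, and whether the counting used strand is not given in the sources used here. B430305J03Rik lies wholly within Rap2b (chr3:61361638-61368430, plus), a small GTPase gene, so that all its 3702 bases are shared. Rap2b was at 95.7 to 159 CPM in Ctrl and 100.2 to 133 CPM in dTAG of the ZCCHC8 line, a change of -0.04 on the log2 scale (SE 0.10, adjusted p 0.793 by edgeR). It stood at -0.48 (SE 0.23, adjusted p 0.158) in the METTL3 line and at 0.15 (SE 0.15, adjusted p 0.693) in the YTHDC1 line, beside -0.40 and 0.17 for B430305J03Rik. BC049715 shares 608 bases with Wbp11 (chr6:136813654-136828233, minus), which encodes a splicing factor, and spans the 5526 bases of Smco3, which had 75 reads in all 36 libraries. Wbp11 was at 139 to 159 CPM in Ctrl and 133 to 149 CPM in dTAG, a change of -0.06 (SE 0.05, adjusted p 0.320). Neither overlapping gene passed the test, and each was more abundant than its partner in both arms. Gm26778, which overlaps Kctd12 on the other strand, had 2 reads in the tables, and the small RNA genes Gm23849 within Rdm1 and Mir5130 within Kctd12 were not analysed here.

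Of the nearest genes on either side that are reported here, 7 had enough reads for the test in the ZCCHC8 line. Of these 7 genes 4 rose, a larger share of a short list than the 20.1% of all genes that did. H2afj, a histone H2A variant gene 17551 bases from BC049715, rose by 0.86 (SE 0.06, adjusted p 3.18e-10). Arl4d, a GTPase gene 29440 bases from Rdm1, rose by 0.89 (SE 0.08, adjusted p 1.39e-09). Arhgef26, an exchange factor gene 972392 bases from B430305J03Rik, rose by 1.28 (SE 0.14, adjusted p 9.71e-08), and Shank1, a synaptic scaffold gene that starts 3350 bases from Clec11a on the other strand, by 0.78 (SE 0.26, adjusted p 0.0188). The others were P2ry1 at 0.10 (SE 0.15), Lmo7 at 0.04 (SE 0.08) and Art4 at -0.35 (SE 0.16). Each of these neighbours changed by less than the gene it adjoins. The adjoining genes were chosen for their rise in this same contrast, so whether the rise is confined to them was not tested. After METTL3, Art4 fell by 1.49 (SE 0.19, adjusted p 0.000455), while BC049715 beside it did not pass.

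**Figure D5:**
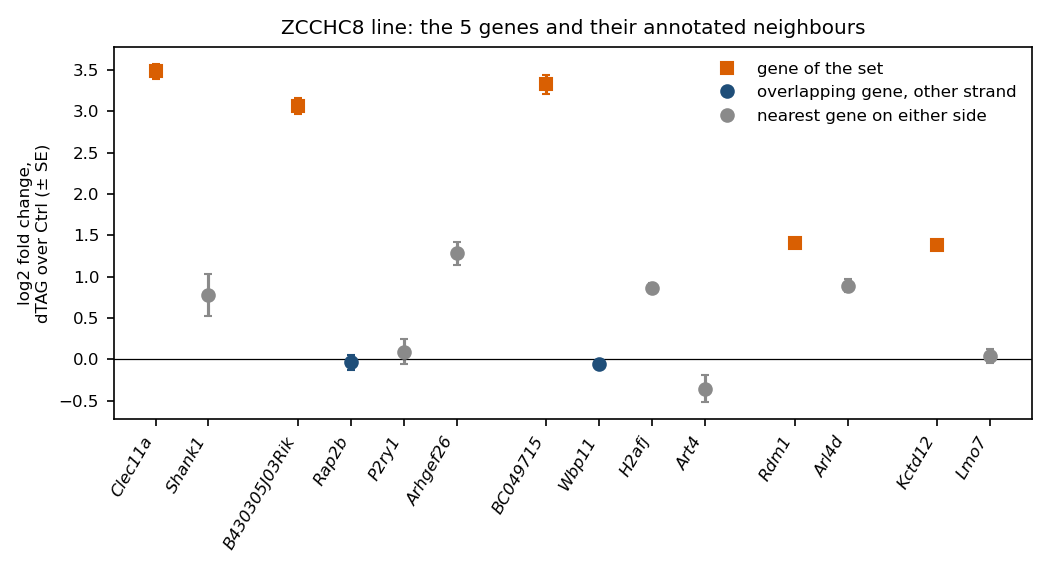
Log2 fold change of dTAG over Ctrl with its SE in the ZCCHC8 line for the 5 genes (orange squares), genes that overlap them on the other strand (blue) and the reported nearest genes with enough reads (grey). The blue points, Rap2b and Wbp11, lie at -0.04 and -0.06.

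The counts called in the gene lists that follow are read against the share of all genes called, 39.6% for ZCCHC8, 20.1% for METTL3 and 5.25% for YTHDC1. Of 28 genes of NEXT, its sister complex PAXT, their cap-binding partners and the exosome, 6 rose and 3 fell in the ZCCHC8 line, 32.1% of the list, which is below the share of all genes, with a median of 0.06 beside -0.00 for all genes. Srrt, a cap-binding partner, rose by 0.33 (SE 0.04, adjusted p 1.84e-06), Zfc3h1, the PAXT scaffold, by 0.23 (SE 0.06, adjusted p 0.00646) and C1d by 0.21 (SE 0.05, adjusted p 0.00195), while Exosc3, an exosome subunit, changed by -0.22 (SE 0.07, adjusted p 0.0194). In the METTL3 line 3 rose and 2 fell, led by Exosc4 at 0.79 (SE 0.25, adjusted p 0.0493) and Exosc10 at -0.64 (SE 0.15, adjusted p 0.0126), and in the YTHDC1 line none of 28 passed. These are no more than the shares of all genes.

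Of 19 tested genes among the KCTD family, GABA-B receptors and Cul3, 4 rose and 7 fell in the ZCCHC8 line, 57.9% of the list beside 39.6% of all genes, with a median of -0.06. Gabbr1 and Gabbr2, the subunits of the receptor that KCTD12 joins, rose by 0.56 (SE 0.13, adjusted p 0.00186) and 1.28 (SE 0.34, adjusted p 0.00357), the second from a mean of 0.69 to 1.72 CPM. Kctd17 changed by -0.60 (SE 0.10, adjusted p 2.74e-05) and Kctd21 by -1.08 (SE 0.34, adjusted p 0.0144). In the METTL3 line 4 of 18 rose and none fell, Kctd6 most at 1.05 (SE 0.13, adjusted p 0.000464), and in the YTHDC1 line 1 fell, Kctd15 by 0.48 on the log2 scale (adjusted p 0.0288). These are 22.2% and 5.56% of the list, near the shares of all genes.

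Of the other C-type lectin genes and the integrin subunits of the CLEC11A receptor, 6 had enough reads in the ZCCHC8 line and none passed (edgeR), where 39.6% of all genes did. In the METTL3 line 3 of 7 rose and 1 fell, 57.1% of a short list beside 20.1% of all genes. Colec12, a scavenger receptor gene, rose by 1.69 (SE 0.14, adjusted p 7.81e-05), Itgb1, the integrin beta1 gene, by 0.44 (SE 0.09, adjusted p 0.00751), and Clec4g changed by -0.99 (SE 0.24, adjusted p 0.0134). In the YTHDC1 line Clec4g alone of 6 passed, at 0.73 (SE 0.16, adjusted p 0.0254), beside 5.25% of all genes.

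The genes whose pattern was most like the mean pattern of the 5 were sought among 13625 other genes by Pearson r of log2(CPM + 0.5) over the 36 libraries, which are split by the arm that chose the genes. They were 3 long noncoding RNA genes, 1700096K18Rik (r = 0.96), CT025678.1 (0.96) and 4933406P04Rik (0.95), and 2 genes annotated as coding, Fbxl22 (0.95), which encodes an F-box protein, and Gm10762 (0.95). They went in the ZCCHC8 line from means of 1.32, 2.05, 1.14, 1.58 and 2.12 CPM in Ctrl to 15.97, 15.3, 11.1, 6.95 and 9.0 CPM in dTAG. None of these 5 passed in the METTL3 or YTHDC1 line (edgeR, adjusted p from 0.309 to 0.968), where 20.1% and 5.25% of all genes did. The ranking favours genes that differ little between the arms of those 2 lines, so the way they were picked brings this with it. Between pairs of the chosen genes, r over the same libraries ran from 0.71 (Rdm1 and Kctd12) to 0.96 (Clec11a and BC049715).

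There were 4 coding genes outside the set with a smaller p of a rise than Kctd12. Hist2h2be and Hist1h4i encode replication-type histones, Zscan4c marks a rare state of ES cells that resembles the 2-cell embryo, and no role is stated for Gm5662. On average over the libraries of an arm, Hist2h2be had 0.978 CPM with ZCCHC8 present and 18.4 CPM without it, Hist1h4i at 73.4 and 195 CPM, Gm5662 at 19.2 and 77.1 CPM and Zscan4c at 9.44 and 41.3 CPM. Gm5662 was 0.62 lower on the log2 scale after depletion of YTHDC1 (log2 fold change -0.62, SE 0.14, adjusted p 0.0279).

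Markers of another cell state moved with the arm of the ZCCHC8 line. All 7 listed markers of 2-cell-like cells rose, with a median log2 fold change of 1.92, and their summed level ranged from 29.7 to 71.4 CPM in Ctrl and from 128 to 278 CPM in dTAG, none being at 0. In the METTL3 line the ranges were 24.1 to 45.7 and 26.3 to 48.6 CPM, and in the YTHDC1 line 9.48 to 24.6 and 6.79 to 18.1 CPM. The part of these cells in the rise of the 5 genes was not tested. A larger share of expressing cells and more RNA per cell cannot be told apart in such bulk libraries. Of 9 feeder markers tested in the ZCCHC8 line, 1 rose (Col6a1, by 0.88, SE 0.21) and 1 fell (Tagln, -0.67, SE 0.24), with sums of 54.8 to 72.9 CPM in Ctrl and 57.3 to 73.6 CPM in dTAG. Of 7 markers of primitive endoderm 3 rose and 1 fell, with sums of 573 to 789 and 588 to 722 CPM. Of 10 ES cell markers 3 rose and 1 fell, none by more than 0.24.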

How the data were processed

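SLAM-seq libraries of total RNA (stranded TruSeq kit, paired reads) were made by the authors from 3 lines, 2 arms and 3 chase times with 2 replicates. Per the submitters' processing notes reads were aligned to mm10 with STAR 2.5.2b. The authors discarded reads on ribosomal RNA, ran GRAND-SLAM with a UCSC annotation whose release is not stated, and deposited 1 table per line and replicate. The deposited count columns are raw reads per gene. The deposited new-to-total ratio is a fraction between 0 and 1, given as posterior mean, MAP and a 90% interval, printed here as a percent. The deposited conversion and T coverage columns are sums (signal) over reads, rounded by the authors. The length column was deposited as bases per gene. A further 108 columns were not used here.

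Counts were tested within each line with edgeR 4.0.16 by its robust quasi-likelihood F test (TMM scaling, low genes dropped by filterByExpr, chase time as a factor, 6 against 6 libraries, Benjamini-Hochberg over all genes tested, threshold 0.05), and as a METTL3 against YTHDC1 interaction over all 36 libraries. The SE is the size of the log2 fold change divided by the square root of F. CPM is the count scaled to the library total. New and old CPM are CPM times the ratio or its complement, tested with limma 3.58.1 (trend, robust) on log2(CPM + 0.5) after TMM scaling, so that folds of low genes are understated. Slopes are of log2 ratio per h, for genes whose reads reached 20 and whose ratio reached 0.02 throughout the libraries fitted. Fits were tested on simulated data. DESeq2 1.42.0 was an alternative, with R 4.3.3, Python 3.11.15, pandas 2.3.3, numpy 2.4.6, scipy 1.17.1 and matplotlib 3.10.9. Wilson intervals cover counting error only, since PCR reads are not independent molecules. Depth per sample ranged from 5274684 to 18652000 reads, so the rarest of the genes rest on 9 to 60 reads in a Ctrl library of the ZCCHC8 line.

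Per the study's reporting summary, the wells of a replicate were split from 1 batch of cells, so replicate numbers pair arms. The deviations of same-numbered Ctrl and dTAG libraries from their group means correlated at 0.175 to 0.755 in all 9 pairs of line and chase time. The fit without the block was kept as the main one. It leaves out this pairing and takes the chase libraries of a replicate as independent, and so do the other main edgeR and limma fits. P-values measure the spread between these libraries, which come from 1 clone per line. Both edgeR and limma share the estimate of that spread over genes, so very small p do not rest on the libraries of 1 gene alone. Replicates differed beyond sampling noise (chi-square per degree of freedom 2.45 to 77.9).

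The genes and gene lists were chosen with earlier results of these data known. Genes are named by a rule: the 5 genes, every annotated gene that overlaps them, the nearest gene on each side with a row in all 6 tables, the 5 most alike by correlation, up to 4 of each list by size among those past the threshold in a line, and coding genes with a smaller p of a rise than the last of the 5. GENCODE M21 gave positions and RefSeq the promoters. A neighbouring gene and a gene list are not reported here.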

Additional observations from a re-analysis of the deposited data

Results flagged for a closer look

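In the YTHDC1 line, Kctd12 stood at 13.3 CPM in Ctrl replicate 1 at 0 min, apart from the other 5 Ctrl libraries, which ran from 18.5 to 19.7 CPM. The gap was 0.802 of the range of the arm. Among 30 sets of 6 libraries checked in this way, chance flags about 1 in 20.

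The log2 fold changes of B430305J03Rik after depletion of METTL3 and of YTHDC1 differed by -0.59 in the edgeR interaction. This call did not hold without the low-count filter or with either replicate left out, and neither response passed alone. Rap2b, which holds the whole gene on the other strand, stood at -0.48 and 0.15 in these lines. B430305J03Rik was lower in 6 of 6 pairs of the METTL3 line, as 18.2% of genes were. It was higher in 6 of 6 pairs of the YTHDC1 line, as 16.6% of genes were, and in 6 of 6 pairs of the ZCCHC8 line. The difference between the METTL3 and ZCCHC8 lines was not tested, since the rise in the ZCCHC8 line chose the gene.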

How the results depend on the processing

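Over all alternatives, 79 values that summarise a comparison and 407 values of single genes stayed on the same side of the threshold and in the same direction, or within the replicate spread, while 20 summaries moved and, of single genes, 22 turned direction, 10 passed only then, 4 no longer passed and 15 moved. The number of the 5 genes called in the METTL3 line was 0 and went to 1 with the replicate block and 0 to 2 with a replicate left out, in the YTHDC1 line to 1 with the replicate block and 0 to 1 with a replicate left out. For new RNA in the METTL3 line it was 1 with the block and 1 without either replicate. The interaction called 1, against 0 without the low-count filter, 0 without replicate 1 and 1, Kctd12 in place of B430305J03Rik, without replicate 2. DESeq2, chosen after seeing the data, gave B430305J03Rik an adjusted p of 0.0219. The block changed no other call, and with chase libraries summed per replicate 0 of the 5 genes were called in the METTL3 and in the YTHDC1 line. With at least 100 reads, no label slope in Ctrl was called in the METTL3, YTHDC1 or ZCCHC8 line (0), since fewer of the genes have a value. Without replicate 2 it was 2 in the ZCCHC8 line, where B430305J03Rik then had enough reads, and the difference in slope in the YTHDC1 line went from 0 to 1 without replicate 1.

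In the ZCCHC8 line the median over the chosen genes of the log2 ratio of new RNA at 0 min (dTAG over Ctrl) was 2.77. It was 2.74 by the MAP ratio, 2.59 by the T-to-C rate, 3.09 by the double-hit rate and 3.23 at 90 and 180 min. For old RNA it was 1.42 at 0 min, 2.83 at 90 and 180 min and 1.53 to 2.33 with a replicate left out. Over all genes the medians at 0 min were -0.03 for new and 0.09 for old RNA. The chosen genes were picked by their rise in this contrast, so these values are a description without a test.

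Directions turned as follows, and the cause was not tested. At 0 min alone, counts in the METTL3 line gave -0.0573 for Kctd12, counts in the YTHDC1 line 0.177 for Clec11a, new RNA in the METTL3 line 0.239 for BC049715, and new RNA in the YTHDC1 line -0.0746 for Clec11a, -0.00478 for Rdm1 and 0.0772 for Kctd12. With either replicate left out, counts in the METTL3 line ran from -0.019 to 0.285 for BC049715, -0.0557 to 0.392 for Rdm1 and -0.199 to 0.276 for Kctd12, and in the YTHDC1 line from -0.15 to 0.0866 for Clec11a. The interaction ran from -0.239 to 0.137 for BC049715 and -0.254 to 0.159 for Rdm1. New RNA ran from -0.36 to 0.151 for BC049715 in the METTL3 line, and from -0.0712 to 0.253 for Clec11a and -0.021 to 0.109 for Rdm1 in the YTHDC1 line. Old RNA ran from -0.066 to 0.443 for Rdm1 in the METTL3 line, -0.062 to 0.239 for Clec11a in the YTHDC1 line and -0.594 to 2.33 for B430305J03Rik in the ZCCHC8 line. The Ctrl slope of Rdm1 in the YTHDC1 line ran from -0.126 to 0.071, and slope differences from -0.324 to 0.187 for Clec11a and -0.000525 to 0.0528 for Rdm1 in the METTL3 line and -0.00886 to 0.0403 for Rdm1 in the YTHDC1 line.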
